A study of Mus musculus with 6 samples.

Results

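The genes described here encode the adhesion proteins with which blood vessel lining captures leukocytes, together with the glycoprotein stored beside one of them: *Selp*, *Sele*, *Vcam1*, *Icam1*, *Icam2* and *Vwf*. They were chosen by name for this known role and are 6 of the 16494 genes in the deposited table. Single cells of lower abdominal muscle (LAM) from 3 wild-type (WT) and 3 *Aromhum* male mice of the FVB/N strain, aged 9 to 10 weeks, were sequenced with the 10x Genomics 3′ protocol. *Aromhum* mice carry the human aromatase gene, with its own promoter region, coding region and polyadenylation site, and the mice used had scrotal hernias. WT mice were littermates without the transgene, and 1 library was made from each mouse. UMIs of human *CYP19A1* numbered 0 in every WT library and 770, 797 and 787 in the *Aromhum* libraries.

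Selectins are lectins that slow leukocytes in the bloodstream. P-selectin (*Selp*) is stored in Weibel-Palade bodies of endothelial cells together with von Willebrand factor (*Vwf*) and reaches the surface within minutes of stimulation, whereas E-selectin (*Sele*) is made after stimulation by cytokines. VCAM-1 (*Vcam1*) and ICAM-1 (*Icam1*) bind leukocyte integrins for firm arrest, ICAM-2 (*Icam2*) is an endothelial integrin ligand that is present without stimulation, and postcapillary venules are the usual place where leukocytes leave the blood.

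*Selp* and *Sele* lie near each other on chromosome 1 of GRCm38, on the plus strand, with 57586 bases between them. *Sele* has 14 exons within chr1:164048234-164057677 and *Selp* 16 exons within chr1:164115264-164150026. Of the 6 genes, 3 (*Selp*, *Sele* and *Icam1*) had a promoter in the RefSeq table of GRCm38.p6. The 250 bases before the start of both selectin genes are shown because these neighbours had the most similar distribution over cell types. Capitals mark TATAAA, searched on both strands.
*Selp* promoter: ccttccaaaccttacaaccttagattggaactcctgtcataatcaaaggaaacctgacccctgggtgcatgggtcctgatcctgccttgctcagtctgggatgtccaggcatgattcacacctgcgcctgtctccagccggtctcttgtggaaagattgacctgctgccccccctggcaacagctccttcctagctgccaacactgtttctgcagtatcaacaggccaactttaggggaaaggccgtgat
*Sele* promoter: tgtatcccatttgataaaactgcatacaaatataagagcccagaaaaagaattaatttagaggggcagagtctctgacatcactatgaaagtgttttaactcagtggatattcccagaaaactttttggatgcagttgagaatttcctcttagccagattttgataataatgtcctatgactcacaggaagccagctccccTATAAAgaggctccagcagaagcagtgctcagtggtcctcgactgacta
These stretches are chr1:164115014-164115263 for *Selp* and chr1:164047984-164048233 for *Sele*, both read on the plus strand. The letters TATAAA were present in the *Sele* stretch, starting 49 bases before the gene, and not in that of *Selp* or *Icam1*, and 12.4% of the 32851 promoters in the table held them in the same window. The estrogen response element GGTCANNNTGACC was found on either strand in 0.0639% of all promoters and in none of the 3 members' stretches. The other genes are *Vcam1* (chr3:116109949-116129688, minus strand, 9 exons), *Icam1* (chr9:21015985-21028817, plus strand, 7 exons), *Icam2* (chr11:106377656-106388075, minus strand, 4 exons) and *Vwf* (chr6:125546774-125686679, plus strand, 52 exons).

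The table held 63647 cell barcodes, between 7905 and 10820 per WT and between 8979 and 13764 per *Aromhum* library, with 64958237 to 72876541 and 92652109 to 111826460 UMIs per library. Of these barcodes, 943 had a sequence that occurred in more than 1 library (471 sequences). WT2 stood apart, since 68.2% of its barcodes had over 5% mitochondrial UMIs against 27.6% to 40.1% in the other libraries. Cells were clustered without the 6 members and named from marker genes that did not include them. In the 16838 blood endothelial-like cells, the 8 endothelial markers (*Pecam1*, *Cdh5* and others) summed to 5046 to 7266 CPM (UMIs per 1000000 UMIs of the class in that mouse), against 68.2 to 96.9 CPM in fibroblast-like cells. Further clustering gave venular-like (3119 cells), capillary-like (6592 cells) and arterial-like cells (2105 cells), and 5022 cells fell in no subtype.

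The selectins and *Vwf* were venular genes in this muscle. *Selp* reached 7710.2 ± 739.8 CPM (mean ± SD, n = 6 mice) in venular-like cells, and the next levels were 714 ± 135 CPM in pericyte-like and 275 ± 148 CPM in arterial-like cells. *Sele* followed the same order at lower levels, with 727 ± 69.3, 56.6 ± 7.78 and 23.8 ± 21.0 CPM. *Vwf* was 608 ± 90.6 CPM in venular-like, 160.2 ± 66.5 CPM in arterial-like and 68.1 ± 13.1 CPM in pericyte-like cells. The venular level of each was above that of any other type in every mouse. The pericyte-like level of *Sele* was above the arterial-like one in every mouse too, by less in *Aromhum* mice (44.2 to 64.4 against 33.1 to 50.8 CPM) than in WT (53.8 to 65.4 against 3.51 to 8.23 CPM). The pericyte-like levels rested on how cells were grouped. At Leiden resolutions 0.4 and 1.2 a deeply sequenced cluster of 3444 and 2753 cells got no name, because it scored highest for endothelial markers while its top genes held more pericyte markers, and a similar cluster of 2736 cells was called pericyte-like here. In the pericyte-like cells of both resolutions, within the study's limits on cells and in groups of consecutive columns of the table, *Selp* was 8.68 to 37.4 CPM and *Sele* 0.244 to 7.16 CPM.

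*Vcam1* had 3 places of high level. It was 1011 ± 178 CPM in venular-like cells and 952 ± 491 CPM in arterial-like cells, and 428 ± 208 CPM in muscle stem cell and myoblast-like cells. The venular level was the higher one in each of the 3 WT mice (790.0 to 896 against 321 to 703 CPM), while in *Aromhum* mice the arterial level was higher in 2 of 3 (1214 to 1527 against 1088 to 1239.7 CPM). Among the lower levels were 102 ± 36.0 CPM in pericyte-like, 70.7 ± 41.6 CPM in fibroblast-like and 33.6 ± 21.4 CPM in capillary-like cells. *Icam1* was the broadest of the 6 genes, with 2213 ± 496 CPM in arterial-like cells, 1401 ± 256 CPM in venular-like and 1401 ± 207 CPM in lymphatic endothelial-like cells, and 1273 ± 308 CPM in capillary-like cells. The last 3 of these levels lay within one another's spread. *Icam1* was still 236 ± 66.2 CPM in fibroblast-like and 40.5 to 66.3 CPM over the 6 mice in smooth muscle-like cells. *Icam2* was 490.2 ± 77.7 CPM in arterial-like, 239 ± 37.4 CPM in capillary-like and 209 ± 27.4 CPM in venular-like cells and 1.79 ± 0.470 CPM in fibroblast-like cells.

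With each cell thinned to 1000 UMIs, 88.9% of venular-like cells had a *Selp* UMI, 40.1% a *Sele* UMI, 44.0% a *Vcam1* UMI and 42.9% a *Vwf* UMI. Fibroblast-like cells, which should lack the selectins and *Vwf*, gave 0.587% for *Selp*, 0.256% for *Sele* and 0.155% for *Vwf*. Arterial-like cells gave 66.9% for *Icam1* and 38.2% for *Icam2*, whose share in fibroblast-like cells was 0.163%. Capillary-like cells had a *Vcam1* UMI in 1.31% of cells. The pericyte-like class held endothelial markers at 3251 to 5414 CPM, close to the 3595 to 4168 CPM of venular-like cells, and *Selp* UMIs outnumbered *Sele* UMIs 13.4 to 1 there in WT and 11.7 to 1 in *Aromhum* mice, against 11.3 and 9.81 to 1 in venular-like cells. The part of endothelial RNA in the pericyte-like values was not tested.

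**Figure D1:**
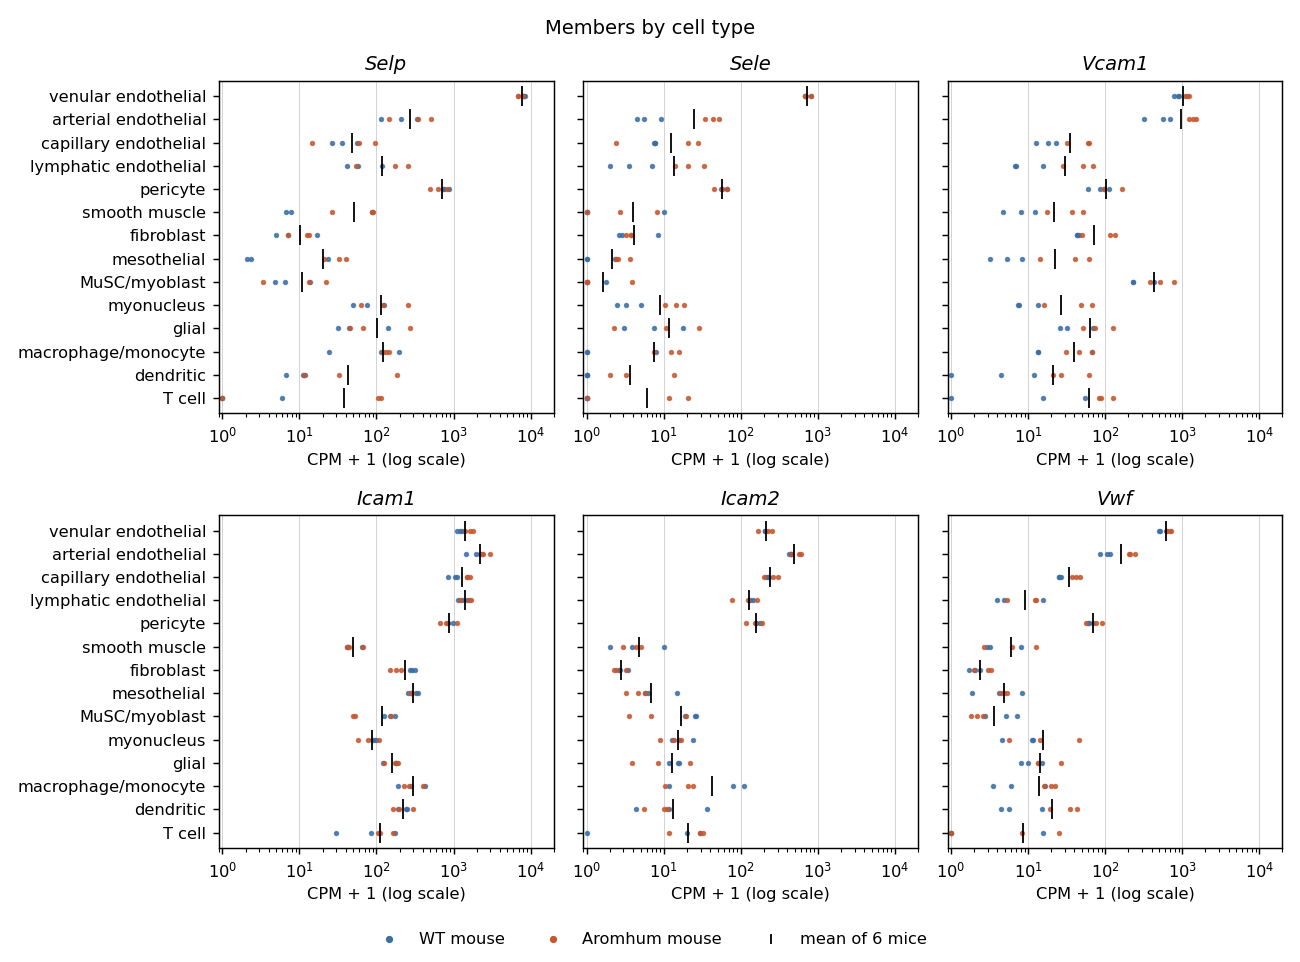
Level of each gene in 14 cell classes (CPM + 1, log scale), 1 point per mouse, with the mean of 6 mice as a bar. *Selp*, *Sele* and *Vwf* peak in venular-like cells, at 7710.2, 727 and 608 CPM, *Vcam1* is high in venular-like and arterial-like cells (means of 1011 and 952 CPM, with the arterial points of WT below those of *Aromhum* mice), and *Icam1* and *Icam2* are highest in arterial-like cells.

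Across 15 cell types and endothelial classes, the gene whose mean log2(CPM + 1) followed *Selp* most closely among 11691 genes was *Sele* (Pearson r = 0.92), then *Glycam1* (0.89) and *Vwf* (0.89). For *Sele* these were *Csf3* (0.94), *Plvap* (0.92) and *Selp* (0.92). For *Vwf* they were *Selp* (0.89), *Gbp5* (0.88) and *Ifi47* (0.88). *Icam2* was closest to *Nos3* (0.98), the endothelial nitric oxide synthase, *Scarf1* (0.96) and *Arhgef15* (0.96), and *Icam1* to *Dock4* (0.96), *Tmem173* (0.95) and *Rab11a* (0.95). *Vcam1* had looser neighbours, *Enpp6* (0.86), *Nmd3* (0.85) and *Apex1* (0.79), and its correlation with *Selp* was 0.49. These correlations describe the classes, which share libraries, and the members' patterns were otherwise not used to choose them.

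Within the whole blood endothelium, 4 of the 6 genes rose in *Aromhum* mice: *Selp*, *Sele*, *Vcam1* and *Vwf*. *Selp* was 2252, 1190 and 1509 CPM in WT and 3470, 2853 and 3347 CPM in *Aromhum* mice. *Sele* was 219.6, 93.9 and 128 CPM in WT and 350.1, 293 and 352 CPM in *Aromhum* mice. The genotypes did not overlap for either selectin, and WT2 was the lowest of the 6 libraries for both. The fitted log2 difference was 0.90 ± 0.23 (SE) for *Selp* (adjusted p = 0.028) and 1.10 ± 0.28 for *Sele* (adjusted p = 0.027), by the quasi-likelihood test of edgeR, adjusted after Benjamini-Hochberg over 12524 genes.

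*Vcam1* was 318, 189.5 and 327 CPM in WT and 797, 667 and 720.0 CPM in *Aromhum* mice, a log2 difference of 1.32 ± 0.21 (edgeR adjusted p = 0.0057). *Vwf* was 169, 98.6 and 154 CPM in WT and 394, 296 and 336 CPM in *Aromhum* mice, a log2 difference of 1.21 ± 0.21 (edgeR adjusted p = 0.0077). Every *Aromhum* library was above every WT library for both genes. *Icam1* was 1129, 877 and 1303 CPM in WT and 1337, 1469 and 1731 CPM in *Aromhum* mice, without overlap. Its log2 difference of 0.39 ± 0.18 did not pass (edgeR adjusted p = 0.16), and ranged from 0.23 without WT2 to 0.53 without WT3. With the replicate block it was 0.40 with an edgeR adjusted p of 0.041. That block pairs same-numbered libraries, and the pairing was read from these same counts. *Icam2* was 259, 275 and 284 CPM in WT and 263, 192 and 323 CPM in *Aromhum* mice, and these ranges overlapped (log2 difference -0.13 ± 0.19, edgeR adjusted p = 0.66).

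The background of these calls was large, as 18.7% of all genes tested in blood endothelial-like cells passed, 1333 up and 1009 down. The median log2 difference was 1.00 over the 6 members and -0.02 over all genes tested. Without WT2 the log2 difference of *Selp* was 0.69 (edgeR adjusted p = 0.068) and that of *Sele* 0.85 (0.060), and both also lost their call without Arom1 (0.094 and 0.092), Arom2 (0.054 and 0.058) or WT3 (0.089 and 0.086). *Vcam1* and *Vwf* kept theirs with any 1 of the 6 mice left out, at log2 differences of 1.09 to 1.45 and 1.00 to 1.38. The blood endothelial-like class also held more RNA of other kinds in *Aromhum* mice: 7 of 7 fibroblast markers were higher and summed to 362 to 446 CPM in WT and 1699 to 4115 CPM in *Aromhum* mice, and 8 of 8 macrophage markers summed to 11.3 to 29.0 and 18.5 to 45.3 CPM. In the cells of the 3 subtypes alone, where the fibroblast markers summed to 121 to 174 and 315 to 379.7 CPM and 16.3% of genes were called, the same 4 members rose, by log2 0.96 (*Selp*), 1.17 (*Sele*), 1.39 (*Vcam1*) and 1.33 (*Vwf*). *Icam1* was at the threshold there (0.46, edgeR adjusted p = 0.051, and 0.0085 with the replicate block).

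**Figure D2:**
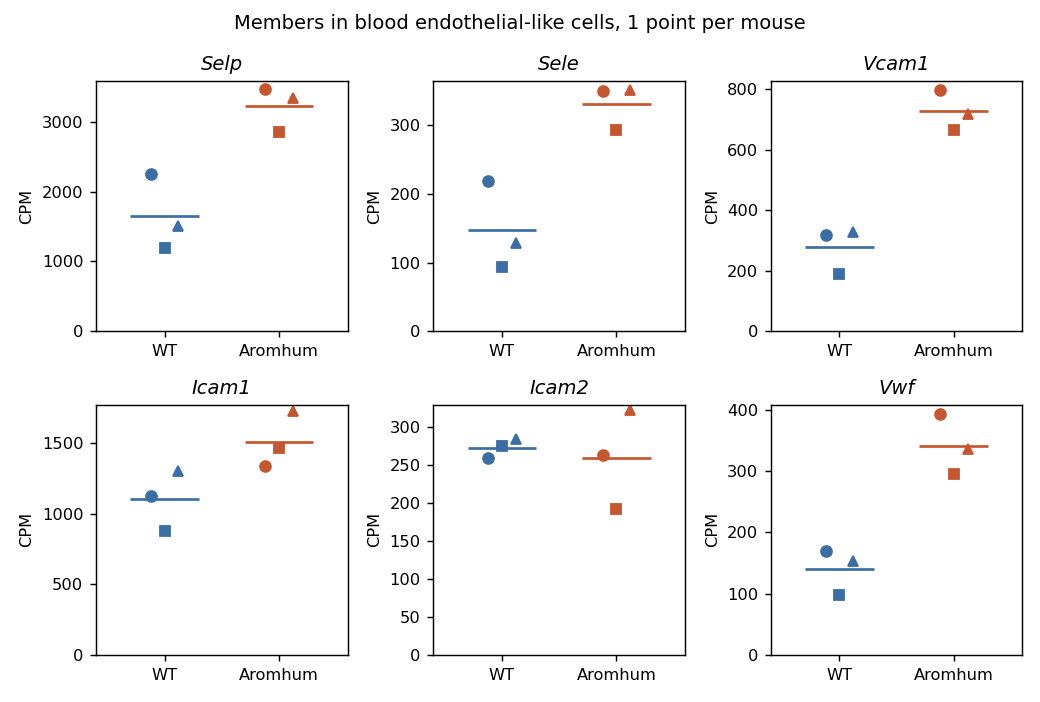
CPM of the 6 genes in blood endothelial-like cells of each mouse, with the mean of each genotype. *Selp*, *Sele*, *Vcam1* and *Vwf* are higher in each of the 3 *Aromhum* mice than in any WT mouse, and the WT and *Aromhum* points of *Icam2* overlap. The *Icam1* points also lie apart (877 to 1303 against 1337 to 1731 CPM), but its difference was not called.

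The mixture of endothelial subtypes also differed between the genotypes. Venular-like cells made up 13.9%, 6.81% and 11.5% of the blood endothelial-like cells of WT mice and 38.8%, 28.5% and 26.3% of those of *Aromhum* mice. The means were 10.7 ± 3.61% and 31.2 ± 6.67% (SD, n = 3), and the lowest *Aromhum* share was above the highest WT share. The difference of 20.5 percentage points had p = 0.1 in a 2-sided exact permutation test, the smallest value that 3 against 3 mice can give. Capillary-like cells averaged 43.4% in WT and 33.4% in *Aromhum* mice (exact permutation p = 0.2), a difference of -9.99 percentage points that was -22.4 to -12.1 in 6 other ways of choosing or grouping the cells (exact permutation p = 0.1 in each, the smallest possible). Arterial-like cells averaged 13.0% and 11.8% (exact permutation p = 0.6). Fewer cells of another subtype and more venular cells cannot be told apart in these shares. Of all barcodes, capillary-like cells were 14.4%, 13.8% and 18.9% in WT and 5.45%, 5.46% and 8.21% in *Aromhum* mice. Venular-like cells were 4.42%, 2.50% and 4.58% in WT and 7.45%, 3.92% and 6.72% in *Aromhum* mice, which overlapped. Over all barcodes *Selp* was 564, 448 and 669 CPM in WT and 446, 252 and 599 CPM in *Aromhum* mice. These values depend on all other cells of each library. The 8 venular markers, none of them a member, summed to 1119 to 2129 CPM in the whole blood endothelium of WT and 3014 to 4301 CPM in that of *Aromhum* mice.

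Venular-like cells held nearly all selectin UMIs of the blood endothelium, 94.6% in WT and 95.5% in *Aromhum* mice for *Selp* and 95.3% and 94.5% for *Sele*. They held 71.9% and 85.2% of *Vwf* UMIs, 58.5% and 69.0% of *Vcam1* UMIs, 20.4% and 45.9% of *Icam1* UMIs and 14.4% and 35.9% of *Icam2* UMIs, while their share of all blood endothelial UMIs was 19.0% in WT and 43.1% in *Aromhum* mice. The levels were therefore also computed with the same subtype shares in every mouse, 31.1% venular-like, 35.0% capillary-like, 16.0% arterial-like and 17.9% without a subtype, as shares of UMIs. On this scale *Selp* was 2651, 2715 and 2559.8 CPM in WT and 2218.5, 2261 and 2669 CPM in *Aromhum* mice, and the ratio of means went from 1.95 as measured to 0.902. The ratio of *Sele* went from 2.25 to 1.07. The genotypes now overlapped for both selectins (exact permutation p = 0.3 and 0.5). Pericyte-like cells lie outside these totals. They held 12.6%, 30.5% and 22.9% of all *Selp* UMIs in WT and 6.58%, 9.63% and 4.79% in *Aromhum* mice. For *Sele* they held 10.0%, 29.4% and 20.0% in WT and 5.08%, 8.04% and 4.08% in *Aromhum* mice. The part of these UMIs in the genotype differences of the blood endothelium was not tested.

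*Vcam1* stayed apart with equal shares, at 353, 340.1 and 406 CPM in WT and 609, 654 and 621 CPM in *Aromhum* mice, and its ratio went from 2.62 to 1.71. The ratio of *Vwf* went from 2.43 to 1.34 and that of *Icam1* from 1.37 to 1.40. For these 3 genes the genotypes did not overlap, and the exact permutation p was 0.1, the smallest possible. The share of all genes whose genotypes do not overlap was not counted in any class. Absence of overlap therefore describes a member's values only, here and elsewhere. *Icam2* had a ratio of 0.950 as measured and 1.03 with equal shares.

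**Figure D3:**
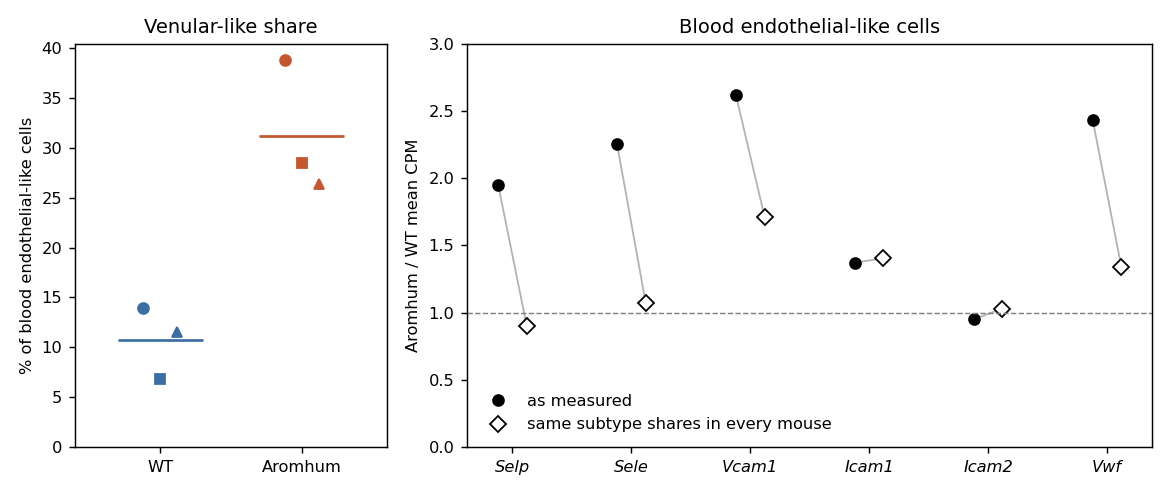
Left, venular-like cells as a percentage of blood endothelial-like cells, 1 point per mouse and 1 line per genotype mean (10.7% and 31.2%). Right, the *Aromhum* to WT ratio of mean CPM for each gene as measured (filled circles) and with the same subtype shares in every mouse (open diamonds). *Selp* and *Sele* move from 1.95 and 2.25 to 0.902 and 1.07, *Vcam1* from 2.62 to 1.71, *Vwf* from 2.43 to 1.34 and *Icam1* from 1.37 to 1.40.

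Within venular-like cells no member passed the test in either direction, where 1.32% of all genes did. *Selp* was 8248, 8577 and 7924 CPM in WT and 6776, 6847 and 7889 CPM in *Aromhum* mice (log2 difference -0.33 ± 0.14, edgeR adjusted p = 0.25). *Sele* was 809, 675 and 684 CPM in WT and 676, 694 and 822 CPM in *Aromhum* mice (-0.11 ± 0.14, edgeR adjusted p = 0.74). *Selp* was thus slightly higher in WT mice without a call, and the *Sele* ranges overlapped. *Vcam1* was 790.0, 889 and 896 CPM in WT and 1239.7, 1165 and 1088 CPM in *Aromhum* mice, with no overlap (0.31 ± 0.12, edgeR adjusted p = 0.21). *Vwf* was 507, 493 and 619.6 CPM in WT and 705, 626 and 697 CPM in *Aromhum* mice (0.20 ± 0.13, edgeR adjusted p = 0.47), and *Icam1* was 1102, 1198 and 1299.8 CPM in WT and 1412, 1772 and 1622 CPM in *Aromhum* mice (0.29 ± 0.13, edgeR adjusted p = 0.28). In these CPM values *Selp*, *Vwf* and *Icam1* did not overlap either, but with the size factors of edgeR *Vwf* and *Icam1* did. Of the 6 members, 2 (*Selp* and *Vcam1*) had an unadjusted edgeR p under 0.05, and DESeq2 called none. Here and in the endothelial classes below, such counts stand without the share of all genes at that unadjusted p.

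The sub-clusters of the venular-like class were filled differently in *Aromhum* mice, most of all in Arom1 and Arom2. A sub-cluster led by *Tnfsf8* and *Glycam1*, the latter a sulfated glycoprotein that can carry selectin ligands, held 18, 2 and 6 WT cells and 508, 353 and 100 *Aromhum* cells. A sub-cluster led by *Selp*, *Olr1* and *Ackr1* held 398, 233 and 328 WT and 353, 161 and 468 *Aromhum* cells, and one led by *Prpf40b* and *Rasa4* held 33, 36 and 28 WT and 34, 25 and 35 *Aromhum* cells. The *Selp*-led sub-cluster was the largest in the WT mice and in Arom3, and the *Glycam1*-led one in Arom1 and Arom2. In the *Aromhum* mice the *Glycam1*-led cells had *Selp* at 5725, 6033 and 5195 CPM, below the 9068, 9635 and 8877 CPM of their *Selp*-led cells, and *Vcam1* at 1077, 1176 and 885 CPM. Without the *Glycam1*-led cells, *Selp* was 8409.8, 8608 and 7953 CPM in WT and 8571, 8771 and 8542 CPM in *Aromhum* mice, a log2 difference of -0.04. *Sele* was 824, 679 and 683 CPM in WT and 905, 893 and 876 CPM in *Aromhum* mice there, with no overlap, and its log2 difference changed sign from -0.11 to 0.20 ± 0.12, as did that of *Icam2* (from -0.05 to 0.15 ± 0.13). Again edgeR called no member (0.169% of all genes were called). An unadjusted p under 0.05 was seen for 3 members, without the share of all genes at that p beside it. *Vwf* passed there with the replicate block (adjusted p = 0.049).

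In the *Selp*-led venular sub-cluster, *Vcam1* was 830.1, 949 and 932 CPM in WT and 1602, 1253 and 1179 CPM in *Aromhum* mice (0.49 ± 0.13, edgeR adjusted p = 0.28). *Vwf* was 507, 480.5 and 615 CPM in WT and 886, 774 and 744 CPM in *Aromhum* mice (0.50 ± 0.13, edgeR adjusted p = 0.22), and with the replicate block it passed (adjusted p = 0.039). The genotypes did not overlap for either gene, but edgeR called 0.151% of genes here and no member. An unadjusted p under 0.05 was seen for 3 members (*Vcam1*, *Icam1* and *Vwf*), without the share of all genes at that p beside it.

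*Vcam1* moved the other way in the small *Prpf40b*-led venular sub-cluster. It was 428, 276 and 241 CPM in WT and 169.9, 88.8 and 123 CPM in *Aromhum* mice, with no overlap, and fell by 1.32 ± 0.29 on the log2 scale (edgeR adjusted p = 0.047, where 0.789% of genes were called). These values rest on 35 to 60 *Vcam1* UMIs per WT mouse and 8 to 23 per *Aromhum* mouse, and the call was lost without WT1 (0.17), WT2 (0.052), Arom2 (0.24) or Arom3 (0.097). The genotype effect on *Vcam1* differed between the *Selp*-led and *Prpf40b*-led sub-clusters by 1.79 ± 0.26 (edgeR, mouse as a block, adjusted p = 0.00037), with 0.172% of genes called. This comparison was added after the values were seen, and it was called with any 1 mouse left out. *Prpf40b*-led cells had *Selp* at 314, 412 and 399 CPM in WT and 558, 799 and 464 CPM in *Aromhum* mice, far below the *Selp*-led cells, and *Vwf* at 621 to 791 CPM over the 6 mice.

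**Figure D4:**
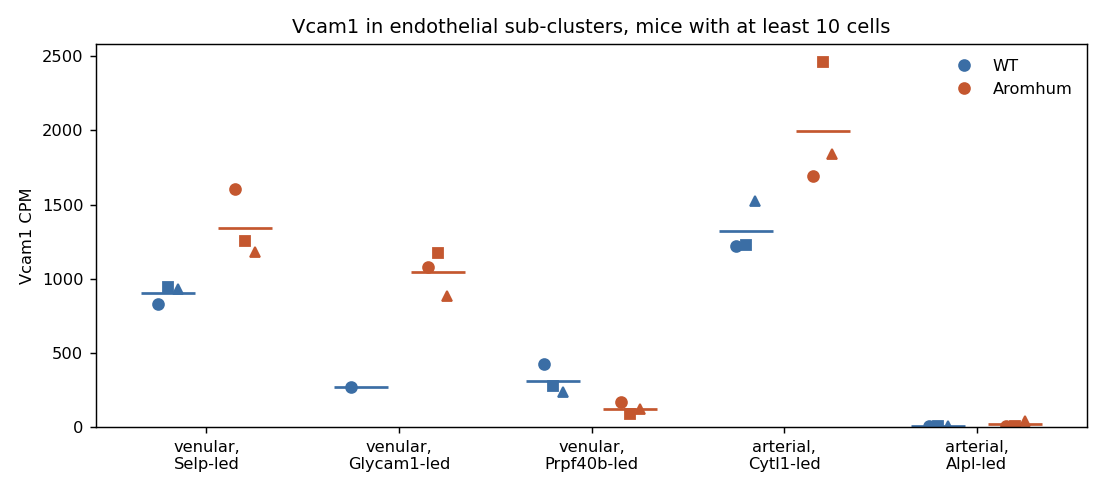
*Vcam1* CPM of each mouse in endothelial sub-clusters named by their leading gene, with the mean of each genotype as a line, for mice with at least 10 cells. The *Aromhum* points lie above the WT points in the *Selp*-led venular sub-cluster (1179 to 1602 against 830.1 to 949 CPM) and below them in the *Prpf40b*-led one (88.8 to 169.9 against 241 to 428 CPM).

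In capillary-like cells 3 of the 6 members rose, *Vcam1*, *Vwf* and *Icam1*, and 2.47% of all genes tested passed. *Vcam1* was 11.7, 16.9 and 21.8 CPM in WT and 31.2, 58.5 and 61.3 CPM in *Aromhum* mice, a log2 difference of 1.52 ± 0.24 (edgeR adjusted p = 0.0053). *Vwf* was 24.1, 24.2 and 25.6 CPM in WT and 45.9, 35.6 and 40.9 CPM in *Aromhum* mice (0.67 ± 0.14, edgeR adjusted p = 0.020). Both stayed far below their venular levels in either genotype. *Icam1*, which was abundant in these cells, was 1054, 859 and 1110.3 CPM in WT and 1472, 1495 and 1645 CPM in *Aromhum* mice (0.56 ± 0.13, edgeR adjusted p = 0.035), with no overlap. *Sele* was 6.65, 6.55 and 6.78 CPM in WT and 1.42, 19.4 and 26.8 CPM in *Aromhum* mice (edgeR adjusted p = 0.18, and 0.043 with the replicate block).

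The capillary calls depended on single libraries: *Vcam1* lost its call without WT2 (edgeR adjusted p = 0.052) or Arom2 (0.065), *Vwf* without WT1 (0.064), WT2 (0.095) or Arom1 (0.082), and *Icam1* without any 1 mouse except WT3 (0.067 to 0.17). Within the study's limits on cells, *Icam1* and *Vwf* were not called (edgeR adjusted p = 0.63 and 0.72). Venular markers moved with these genes, since 8 of 8 were higher in the capillary-like cells of *Aromhum* mice and summed to 248 to 302 CPM in WT and 518 to 789 CPM in *Aromhum* mice, and their part in the values was not tested. Among WT capillary-like cells the sub-cluster led by *Hspa1a* was the largest (753, 701 and 802 cells), whereas in *Aromhum* mice the one led by *Pgf* was largest (332, 461 and 339 cells). The name of the *Pgf*-led cells was not stable, since at Leiden resolution 1.2 and within the limits a *Pgf*-led cluster (1181 and 1310 cells) was left without a subtype because its top genes held more arterial than capillary markers. At that resolution the log2 difference of *Vcam1* was 2.51 and that of *Icam1* 0.87 (edgeR adjusted p = 2.3e-05 and 0.0054). With the same shares of these sub-clusters in every mouse, the ratio of *Vcam1* went from 2.99 to 2.02, that of *Icam1* from 1.53 to 1.37 and that of *Vwf* from 1.65 to 1.52. No member was called within the sub-clusters led by *Hspa1a*, *Pgf* or *C730034F03Rik*, where edgeR called 0.314%, 1.17% and 0.065% of genes. There 4, 2 and 1 members had an unadjusted p under 0.05, without the share of all genes at that p beside them. In the *Pgf*-led sub-cluster *Vcam1* passed with the replicate block (0.83, adjusted p = 0.0088).

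The effect on *Vcam1* was smaller in venular-like than in capillary-like cells. The difference of the log2 effects was -1.23 ± 0.25 (edgeR interaction with mouse as a block, adjusted p = 0.016), in a test that called 3.17% of genes. It ranged from -1.53 to -1.02 with 1 mouse left out, and lost its call without WT1 (0.088), WT2 (0.078) or Arom2 (0.055), and within the study's limits on cells (-1.07, 0.77). The other 5 members did not pass, with *Sele* at -1.31 (edgeR adjusted p = 0.12) and *Vwf* at -0.47 (0.089) closest to it. Without the filter on low counts *Selp* (-0.71, edgeR adjusted p = 0.0033) and *Sele* (-1.28, 7.0e-06) passed, and so did *Sele* without Arom1 (-1.78, 0.0016) and *Vwf* without Arom3 (-0.53, 0.0497).

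Among the whole blood endothelium and its 3 subtypes, the largest fold of any member was that of *Sele* in arterial-like cells. It was 4.51, 3.51 and 8.23 CPM in WT and 50.8, 42.9 and 33.1 CPM in *Aromhum* mice, from 59 and 191 UMIs, and rose by log2 2.81 ± 0.29 (edgeR adjusted p = 0.0026, 1.31% of genes called). It was called with any 1 mouse left out, at 2.54 to 3.37. *Vcam1* was 557, 321 and 703 CPM in WT and 1214, 1527 and 1389 CPM in *Aromhum* mice (1.35 ± 0.24, edgeR adjusted p = 0.023). *Vwf* was 105, 84.2 and 115 CPM in WT and 204, 244 and 208 CPM in *Aromhum* mice (1.07 ± 0.16, edgeR adjusted p = 0.014). All 3 genes were higher in every *Aromhum* mouse, and *Vcam1* and *Vwf* lost their calls without WT1 (0.095 and 0.058) or Arom2 (0.087 and 0.068). In groups of consecutive columns of the table used in place of clusters, the edgeR adjusted p was 0.086 for *Sele*, 0.51 for *Vcam1* and 0.49 for *Vwf*. *Icam1* was 1953, 1469 and 2180.3 CPM in WT and 2319.5, 2395 and 2962 CPM in *Aromhum* mice, a log2 difference of 0.42 ± 0.18 that did not pass (edgeR adjusted p = 0.29, and 0.047 with the replicate block).

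WT arterial-like cells were mostly of a sub-cluster led by *Alpl* (221, 346 and 285 cells) and *Aromhum* ones mostly of a sub-cluster led by *Cytl1* (170, 93 and 200 cells). *Vcam1* was a gene of the *Cytl1*-led cells, with 1221 to 2459 CPM against 6.84 to 43.6 CPM in *Alpl*-led cells. With the same shares of both in every mouse the ratio of *Vcam1* went from 2.61 to 1.51, that of *Vwf* from 2.15 to 1.51, that of *Icam1* from 1.37 to 1.09 and that of *Sele* from 7.80 to 4.45. Within *Cytl1*-led cells *Sele* was the only member called, at 9.99, 13.7 and 18.0 CPM in WT and 69.9, 69.2 and 44.2 CPM in *Aromhum* mice (1.92 ± 0.27, edgeR adjusted p = 0.019, 0.0573% of genes called). That call was lost without WT1 (0.12), WT2 (0.23), Arom1 (0.13) or Arom2 (0.081). Within *Alpl*-led cells no member was called, where edgeR called 0.16% of genes. There 1 member (*Vcam1*) had an unadjusted p under 0.05, without the share of all genes at that p beside it.

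Venular markers moved with *Sele* here too. In the *Cytl1*-led cells 7 of 8 were higher in *Aromhum* mice, with sums of 643 to 760.1 CPM in WT and 1064 to 1308 CPM in *Aromhum* mice. The cells held 44.5, 31.9 and 40.1 *Selp* UMIs per *Sele* UMI in WT and 2.87, 8.06 and 15.2 in *Aromhum* mice, while the ratio in venular-like cells was 9.60 to 12.7 over the 6 mice. *Selp* itself did not rise in them, at 444, 436 and 721 CPM in WT and 201, 558 and 671 CPM in *Aromhum* mice (log2 difference -0.24 ± 0.34, edgeR adjusted p = 0.89). The part of venular RNA in the arterial values was not tested.

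**Figure D5:**
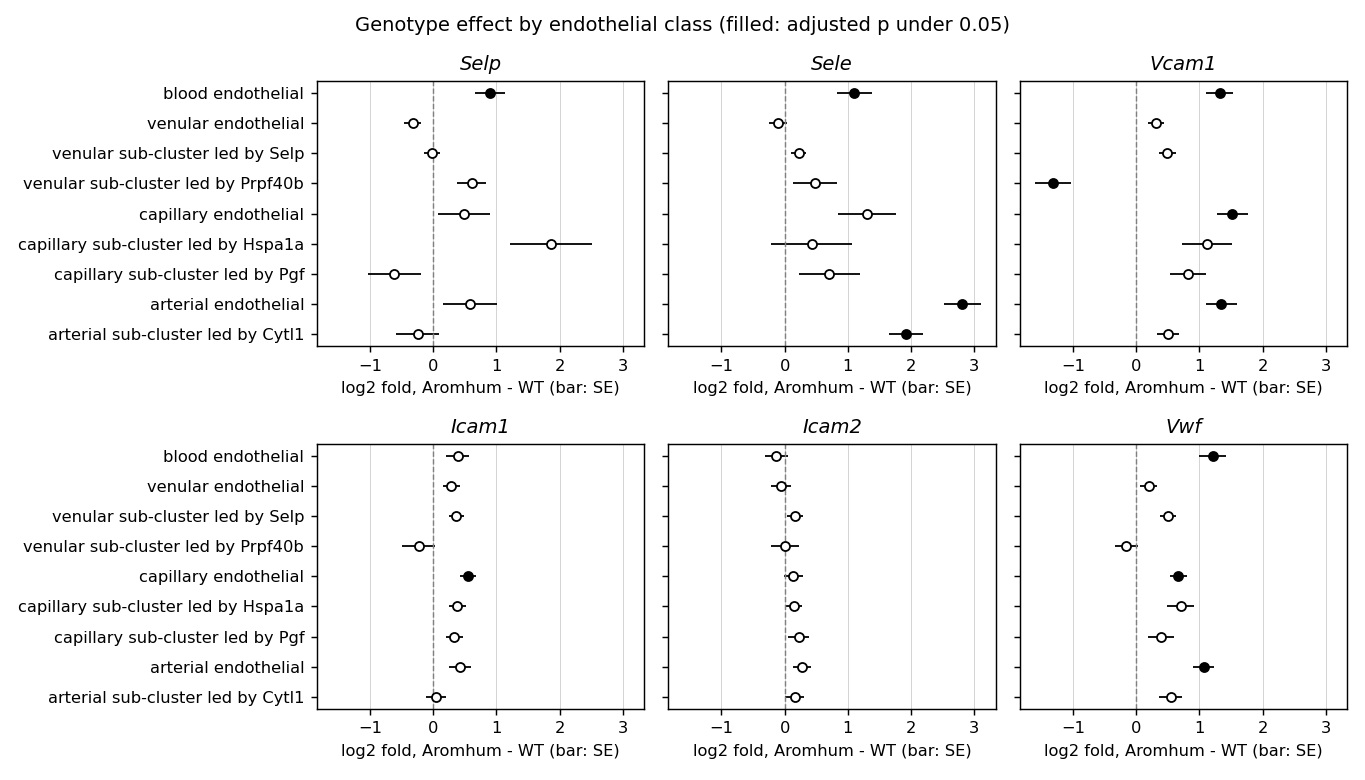
Log2 difference *Aromhum* minus WT of each member by blood endothelial class (point) with its SE (bar); filled points have an edgeR adjusted p under 0.05. *Selp* and *Sele* are called in the whole blood endothelium (0.90 and 1.10) and not in venular-like cells (-0.33 and -0.11), *Sele* has its largest difference among the classes plotted in arterial-like cells (2.81), and *Vcam1* is called upward in blood endothelial-like, capillary-like and arterial-like cells and downward in the *Prpf40b*-led venular sub-cluster (-1.32).

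Outside the blood endothelium 2 of the 53 pairs of member and cell type tested by edgeR passed, *Icam1* in fibroblast-like and *Vcam1* in smooth muscle-like cells. *Icam1* of fibroblast-like cells was 292, 273 and 313 CPM in WT and 178, 149.8 and 209.9 CPM in *Aromhum* mice, with no overlap, and fell by 0.73 ± 0.13 on the log2 scale (edgeR adjusted p = 0.023, 13.2% of genes called). The call was lost with any 1 mouse other than Arom3 left out (0.069 to 0.099). Fibroblast-like clusters were filled unevenly, as seen at Leiden resolution 1.2. The *Mmp3*-led cluster held 6, 0 and 0 WT cells and 869, 1409 and 7 *Aromhum* cells. The *Pnoc*-led cluster held 452, 208 and 147 WT cells and 1394, 1778 and 769 *Aromhum* cells. The part of these clusters in the values of the whole class was not tested. A list of 14 dissociation and immediate early genes moved with *Icam1*, at 16853 to 19392 CPM in WT and 10513 to 13265 CPM in *Aromhum* fibroblast-like cells. *Vcam1* of fibroblast-like cells was 42.5, 41.5 and 44.4 CPM in WT and 113, 134 and 48.6 CPM in *Aromhum* mice, the last near WT, and did not pass (1.21 ± 0.36, edgeR adjusted p = 0.065). Arom3, the mouse near WT, was also the *Aromhum* mouse with few *Mmp3*-led cells. Fibroblast-like cells held 18.0%, 13.1% and 7.22% of all *Vcam1* UMIs in WT and 34.2%, 52.3% and 14.9% in *Aromhum* mice. The means were 12.8% and 33.8%, and the genotypes overlapped. The same cells were 34.3%, 21.4% and 19.8% of barcodes in WT and 39.9%, 49.4% and 36.7% in *Aromhum* mice.

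*Vcam1* of smooth muscle-like cells was 7.13, 11.5 and 3.74 CPM in WT and 16.9, 50.9 and 35.7 CPM in *Aromhum* mice, from 5 to 12 and 10 to 35 UMIs per mouse (2.15 ± 0.44, edgeR adjusted p = 0.043, 0.873% of genes called). It lost its call without WT1 (0.11), WT3 (0.11), Arom2 (0.19) or Arom3 (0.10), and 6 of 7 fibroblast markers were higher in these *Aromhum* cells, with sums of 1475 to 6382 CPM in WT and 4653 to 8509 CPM in *Aromhum* mice, whose part was not tested. In muscle stem cell and myoblast-like cells, where VCAM-1 is known from myoblast fusion, *Vcam1* was 428, 230.5 and 228 CPM in WT and 786, 516 and 381 CPM in *Aromhum* mice (0.86 ± 0.29, edgeR adjusted p = 0.12, 2.83% of genes called), and passed with the replicate block (0.87, adjusted p = 0.0081), as did *Icam1* downward (-1.03, adjusted p = 0.046). In lymphatic endothelial-like cells *Vcam1* was 5.95, 5.72 and 14.7 CPM in WT and 69.0, 27.4 and 50.1 CPM in *Aromhum* mice (2.49 ± 0.41, edgeR adjusted p = 0.063, 0.0918% of genes called, and 0.041 with the replicate block). *Sele* of these cells had a larger difference from few UMIs, 1 to 7 per WT and 9 to 47 per *Aromhum* mouse, at 0.992, 2.54 and 6.04 CPM and 19.7, 13.0 and 32.7 CPM with no overlap (2.84 ± 0.51, edgeR adjusted p = 0.095). *Selp* was 40.7, 56.0 and 116.5 CPM in WT and 171, 53.4 and 255 CPM in *Aromhum* mice, which overlapped (1.22 ± 0.47, edgeR adjusted p = 0.62).

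No member was called in 7 further classes, where edgeR called 1.82% of genes in pericyte-like, 0.419% in glial-like, 0.222% in mesothelial-like, 0.227% in myonucleus-like, 0.804% in T cell-like and 0% in macrophage/monocyte-like and dendritic-like cells. In the last 2, edgeR found 662 and 362 genes, and 3 and 2 members, at an unadjusted p under 0.05, and DESeq2 called 117 and 5 genes. With the replicate block *Vcam1* passed in mesothelial-like (3.27, adjusted p = 0.028) and glial-like cells (0.97, adjusted p = 0.0031) and *Sele* in myonucleus-like cells (2.29, adjusted p = 0.024). The pairing behind the block was not checked in these classes. The shares of genes called outside the blood endothelium are those without the block, so calls with the block stand without their own share.

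Genes with related roles were counted in blood endothelial-like cells beside the members, where 18.7% of all genes were called. The share called was above this in 6 of the 8 lists and below it among leukocyte counter-receptors and shear and quiescence genes. Of 13 genes of Weibel-Palade bodies and haemostasis, 7 rose and none fell, with a median log2 difference of 0.80 against -0.02 over all genes. They included endothelin 1 (*Edn1*, 0.92 ± 0.14, edgeR adjusted p = 0.0051), the Weibel-Palade membrane protein *Cd63* (0.92 ± 0.17, 0.0090) and tissue plasminogen activator (*Plat*, 0.81 ± 0.16, 0.012). Of 17 genes of NF-kB signaling and cytokine response, 7 rose and 1 fell (median 0.43), among them the adaptor *Traf1* (1.18 ± 0.21, edgeR adjusted p = 0.0083), the receptors *Tnfrsf1b* (0.74 ± 0.14, 0.0093) and *Il1r1* (0.98 ± 0.20, 0.012), and *Nfkb1* (0.59 ± 0.12, 0.012). Of 9 genes for chemokines and their presentation, 3 rose (median 0.21): *Ccl7* (2.95 ± 0.50, edgeR adjusted p = 0.0067), *Ccl2* (1.55 ± 0.41, 0.030) and *Ackr1* (1.03 ± 0.29, 0.037), a venular receptor that also marked the subtype. The fibroblast markers that rose in this class, given above, moved with these chemokines, and in the cells of the 3 subtypes alone *Ccl7* was 1.49 ± 0.24 (edgeR adjusted p = 0.0055), *Ccl2* 0.32 ± 0.48 (0.68) and *Ackr1* 1.10 ± 0.25 (0.017). *Ccl7* was 1.30 within the limits on cells (edgeR adjusted p = 0.059) and 1.24 in the column groups (0.16). *Ccl2* lost its call without WT2 (0.054), WT3 (0.051), Arom1 (0.11) or Arom2 (0.083), *Ackr1* without WT2 (0.11), WT3 (0.11) or Arom1 (0.13), and *Il1r1* and *Nfkb1* without Arom1 (0.051 each).

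Of 6 genes for the synthesis of selectin ligands that passed the filter, 2 rose and 1 fell (median 0.16), namely the sulfotransferase *Chst2* (2.13 ± 0.28, edgeR adjusted p = 0.0030), the sialyltransferase *St3gal4* (0.94 ± 0.12, 0.0031) and *Tpst1* (-0.79 ± 0.19, 0.024). Of 15 genes of cell junctions and transmigration, 2 rose and 5 fell (median -0.002), with *Alcam* up (2.55 ± 0.36, edgeR adjusted p = 0.0038) and *Jam3* (-1.04 ± 0.15, 0.0041), claudin 5 (*Cldn5*, -0.86 ± 0.17, 0.012) and *Tjp1* (-0.50 ± 0.12, 0.022) down. With the size factors of edgeR, *Alcam* was only 1.11, 1.05 and 1.22 CPM in WT and 9.32, 7.26 and 3.57 CPM in *Aromhum* mice. Of the 11 leukocyte counter-receptors 6 could be tested and none passed, and *Cd44* (0.47, edgeR adjusted p = 0.11) and *Itga9* (0.61, 0.23) came closest and passed with the replicate block (0.041 and 0.0054). With 1 mouse left out *Cd44* ranged from 0.29 to 0.67 and *Itga9* from 0.22 to 1.04. Of 7 shear and quiescence genes only *Tie1* passed (-0.48 ± 0.14, edgeR adjusted p = 0.043, median -0.18). Of the 14 dissociation and immediate early genes 10 fell and none rose (median -0.70), led by *Hspa1b* (-1.89 ± 0.14, edgeR adjusted p = 0.0012), *Hspa1a* (-2.00 ± 0.17, 0.0012), *Egr1* (-1.01 ± 0.14, 0.0033) and *Ier2* (-0.98 ± 0.15, 0.0051). Their summed level was 22410.0 to 25621 CPM in WT and 14320.0 to 17374 CPM in *Aromhum* blood endothelial-like cells. *Tie1* lost its call with any 1 mouse other than Arom3 left out (edgeR adjusted p = 0.053 to 0.15), *Tjp1* without WT2 (0.063), WT3 (0.056), Arom1 (0.084) or Arom2 (0.055), *Tpst1* without Arom1 (0.093) or Arom2 (0.075) and *Cldn5* without Arom2 (0.052). In the 3 subtypes alone *Tie1* (-0.27, edgeR adjusted p = 0.15) and *Tjp1* (-0.27, 0.11) were not called, and *Cd44* was -0.16 (0.68). These counts describe the same cells whose subtype shares differed between the genotypes.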

How the data were processed

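The deposited table holds raw counts of unique molecular identifiers (UMIs) per gene and barcode, which the authors made with Cell Ranger 3.0.2 against mm10 with human *CYP19A1* added, as their methods and processing notes state. All values were whole numbers, and each barcode carried the name of 1 library. The methods pair 1 WT and 1 *Aromhum* littermate on each of 3 processing dates, but the labels tie no replicate number to a date.

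All 63647 barcodes were used. The study's limits (200 to 2500 genes, at least 1000 UMIs, at most 5% mitochondrial UMIs) were an alternative, because the upper limit on genes removes barcodes unevenly between the genotypes. Cells were clustered with scanpy 1.11.5 and leidenalg 0.10.2 under Python 3.11.15 (2000 variable genes without the 6 members, 30 components, 20 neighbours, Leiden resolution 0.8), and blood endothelial-like clusters were clustered again. A cluster was called after the list with the highest score among marker lists for endothelial cells and 3 endothelial subtypes, lymphatic endothelium, pericytes, smooth muscle, fibroblasts, mesothelium, macrophages, dendritic cells, T cells, B cells, neutrophils, platelets, glia, muscle stem cells, myonuclei, adipocytes and erythroid cells. Sub-clusters are named by their leading gene. Names may differ from the study's. No cluster was called B cell, platelet, adipocyte or erythroid. The 4 measured platelet markers, tested because platelets also make P-selectin, summed to 15.5 to 17.8 CPM in WT and 14.8 to 22.4 CPM in *Aromhum* blood endothelial-like cells. Neutrophil-like cells reached the 10 cells needed for a mean in 4 mice only. Doublets were marked with Scrublet in each library, which found 173, 0 and 0 in WT and 165 to 359 in *Aromhum* libraries. Since its threshold did not work in 2 libraries, the 5% of barcodes with the highest score were left out as an alternative.

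UMIs were summed per mouse and class, and classes with at least 20 cells in every mouse were compared with edgeR 4.0.16 in R 4.3.3 (TMM, filter on low counts, quasi-likelihood test, Benjamini-Hochberg adjustment, threshold 0.05). The SE of a log2 difference was its size divided by the square root of F. Shares were compared with a 2-sided exact permutation test over mice. For shares of cells with a UMI, cells were thinned to 1000 UMIs, which left out 4411 barcodes. In simulated counts for the same libraries, edgeR recovered 63.6% of genes with a log2 change of 1 in blood endothelial-like, 70.2% in venular-like, 75.8% in capillary-like and 59.2% in arterial-like cells and 59.8% for the difference of venular and capillary effects. Of log2 changes of 2 it recovered 97.9%, 99.0%, 98.0%, 93.5% and 90.0%, and 8.14%, 5.29%, 11.3%, 2.68% and 7.5% of its calls were false. The false share was above the threshold of 0.05 in all but arterial-like cells. Each simulation changed 200 genes at random, of 12348 in blood endothelial-like cells, whereas 18.7% of genes were called in the real data of that class. The recoveries need not hold for the real tests.

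Same-numbered WT and *Aromhum* libraries deviated together in blood endothelial-like cells (correlations of 0.135, 0.141 and 0.267 over genes), so that the replicate number was taken to pair them, which the labels do not state. In venular-like cells the correlations were 0.179, 0.0907 and 0.234. In fibroblast-like cells they were 0.210, -0.116 and 0.162, where libraries of different number reached 0.231, so that the pairing was not seen in every class. The pairing was read from the same counts to which the block was then fitted, and no other class was checked. Calls made only with the block rest on this unstated pairing. Alternatives were DESeq2 1.42.0, RLE size factors, genes of low count kept in, a replicate block, omission of each mouse in turn, other Leiden resolutions (0.4 and 1.2), the members allowed in clustering and, added after the data were seen, 30 groups of consecutive columns of the table in place of clusters, single sub-clusters and equal subtype shares. The 6 members were named in every class. Of each list of related genes, up to 4 called genes with the lowest adjusted p were named, or 2 with the lowest p if none was called, and 1 gene named by this rule is not reported here. Members and lists were chosen with earlier results of these data known. Intervals of precision come from the 3 mice per genotype, each 1 library.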

Additional observations from a re-analysis of the deposited data

Results flagged for a closer look

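The genotype effect on *Vcam1* differed between endothelial classes. In venular-like cells it was lower than in capillary-like cells by 1.23 on the log2 scale (difference -1.23 ± 0.25, edgeR interaction, adjusted p = 0.016). Both log2 differences were upward, with higher values in 3 of 3 *Aromhum* mice, but the venular-like one was not called (0.31, edgeR adjusted p = 0.21). The capillary-like levels were low, at 11.7 to 61.3 CPM over the 6 mice. The call of the interaction was lost without WT1 (edgeR adjusted p = 0.088), WT2 (0.078) or Arom2 (0.055), and within the study's limits on cells (0.77). Venular markers were also higher in the capillary-like cells of *Aromhum* mice, and their part was not tested. Between the *Selp*-led and the *Prpf40b*-led venular sub-clusters the effect on *Vcam1* differed by 1.79 ± 0.26 (edgeR, adjusted p = 0.00037), with every *Aromhum* mouse above every WT mouse in the first and below in the second. The second comparison was chosen after the values were seen, and the *Prpf40b*-led sub-cluster holds 191 cells.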

How the results depend on the processing

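In the 4 endothelial comparisons, the members kept direction and side of the threshold in 341 of the values under alternatives, while 33 were no longer past it, 6 came to pass it and 12 changed sign. The replicate block called 8 member and type pairs outside the blood endothelium in place of 2 and changed no call of a member or named list gene other than those given beside the results. The number of genes called was 2342 in blood endothelial-like, 124 in venular-like, 257 in capillary-like and 118 in arterial-like cells and 333 for the difference between venular-like and capillary-like cells. With the study's limits on cells these were 806, 4, 22, 18 and 9. With the replicate block they were 596 in venular-like, 674 in capillary-like and 551 in arterial-like cells. Without the filter on low counts they were 540, 441 and 487 in these 3 and 696 for the difference. DESeq2 called 314 in venular-like and 210 in arterial-like cells. The column groups gave 1091 in blood endothelial-like, 11 in venular-like and 3 in arterial-like cells. Leiden resolution 0.4 gave 156 and 1.2 gave 501 in capillary-like cells, and leaving out the highest doublet scores gave 72 in arterial-like cells. Without the *Glycam1*-led cells 15 were called in venular-like cells and 117 for the difference. Leaving out 1 mouse gave 837 to 2714, 5 to 1084, 63 to 349, 19 to 147 and 68 to 968, lowest without Arom1, WT2, Arom2, Arom2 and Arom1 and highest without Arom3 in each. Outside the blood endothelium the 2 pairs became 10 without the filter, 7 with DESeq2, 1 at resolution 0.4, 1 at 1.2, 0 within the limits, 1 with the members in clustering and 0 to 6 with 1 mouse left out. These counts of pairs, and the 8 with the replicate block, stand without the share of all genes called in the same classes and settings. They therefore describe the settings and not the members. The cause of the changes in these numbers was not tested.

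The log2 difference of *Icam2* in blood endothelial-like cells changed sign within the limits (0.060), in the column groups (0.036), in the 3 subtypes alone (0.039), with equal subtype shares (0.043) and without Arom2 (-0.34 to 0.070 over the 6 mice left out). In venular-like cells *Sele* was 0.029 within the limits and 0.20 without the *Glycam1*-led cells, and *Icam2* 0.15 without the latter. The difference between venular-like and capillary-like effects changed sign for *Icam1* within the limits (0.093) and for *Icam2* without the *Glycam1*-led cells (0.0019). *Cd44* in blood endothelial-like cells was -0.16 in the 3 subtypes alone. *Selp* changed sign in arterial-like cells in the column groups (-0.18) and with equal sub-cluster shares (-0.17), in blood endothelial-like cells with equal subtype shares (-0.15) and in capillary-like cells without Arom2 (-0.055 to 0.91). *Icam2* was -0.0063 in capillary-like cells at resolution 1.2, and with 1 mouse left out ranged from -0.010 to 0.29 there and from -0.24 to 0.10 in venular-like cells. The difference in venular-like share kept its direction under each alternative, at 16.7 to 22.9 percentage points. That in arterial-like share was 0.0018 at resolution 0.4 and 2.28 in the column groups. Of the levels by cell type, 433 moved by less than the spread between mice and 89 by more, and the cell type with the highest level was the same in each clustering alternative except for *Vcam1* in the column groups.

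With 3 mice per genotype, edgeR recovered 59.2% to 75.8% of simulated log2 changes of 1. Those simulations changed 200 genes each, and their recoveries need not hold for the real tests. An exact test over mice cannot go below 0.1. Few UMIs per mouse limited *Sele* in arterial-like, *Vcam1* in smooth muscle-like and *Vcam1* in *Prpf40b*-led cells.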
